A study of Homo sapiens with 4 samples.

Results

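SOX4, SOX9, SOX12 and SOX13 are 4 genes of the SOX family, taken here as named genes and found through the GENCODE map of transcripts to genes, out of 34500 genes with a transcript in the data. They were followed by RNA-seq in MCF10A, a human breast epithelial line that grows without being tumorigenic, in 2 groups. The control group held 2 libraries of cells with a scramble shRNA, that is, a non-targeting hairpin, at 0 h without added TGF-β1. The treated group held 2 libraries of cells with the same scramble shRNA after 1.5 h with 5 ng/ml of TGF-β1, the cytokine whose receptors activate SMAD2 and SMAD3. No library came from cells at 1.5 h without TGF-β1. Effects of the cytokine and of the elapsed time or handling therefore cannot be told apart in any difference below. All 4 libraries came from cells grown with EGF, cholera toxin, insulin, hydrocortisone and horse serum. The labels call the libraries biological duplicates and do not say what a replicate number shares, so p-values measure the spread between these libraries.

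SOX proteins are transcription factors that bind and bend DNA through an HMG box, the domain that defines the family. Subgroups are drawn by sequence: SOX4, SOX12 and SOX11 form the C group, SOX9 belongs to the E group with SOX8 and SOX10, and SOX13 to the D group with SOX5 and SOX6. In epithelial cells SOX4 is known as a TGF-β target that takes part in epithelial-mesenchymal transition. SOX9 is known as the master regulator of cartilage and, in the breast, as a factor of luminal progenitor and stem cells. SOX12 is the least studied C group member, and SOX13 is known as a partner that restrains TCF1 in WNT signalling.

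Each library held between 35737659 and 40792300 estimated counts. SMAD7, the inhibitory SMAD that answers TGF-β within hours, served as the check of treatment, with 4.48 and 4.76 TPM in the controls and 83.8 and 59.8 TPM after TGF-β1 (TPM is a level corrected for transcript length and library size). The 7 basal mammary markers were all tested and summed to 7910 and 8265 TPM in the libraries numbered 1 and to 5182 and 5631 TPM in those numbered 2, control first. The 8 luminal markers summed to between 505 and 701 TPM, nearly all of it from KRT18 (347 to 454 TPM) and KRT8 (146 to 236 TPM), with PGR, KRT19 and ELF5 at or under 0.445 TPM in every library. Replicate numbers thus differ in both groups, so each change is also given within a replicate number.

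The RefSeq promoter table (GRCh38.p14) matched 3 of the 4 members, SOX4, SOX12 and SOX13. In the 250 bases before each RefSeq start, both strands were searched for the SMAD3 and SMAD4 box CAGAC, the GC-rich SMAD element GGCGC, the AP-1 site TGANTCA, the KLF-type box CACCC and the SOX core ACAAT. The stretches below are shown because they hold the matches in SOX4, which DESeq2 called, and in 2 members that it did not. Each is 30 bases, 5′ to 3′ on the plus strand, with the named match in capitals. Of the other matches found, a second CACCC in the SOX13 stretch and a reverse-strand CACCC in the SOX12 GGCGC stretch stand in lower case.
SOX4, GGCGC, chr6:21593716-21593745: aaaggataaagaGGCGCgaggcggaattgg
SOX12, CAGAC, chr20:325482-325511: cgcagcggcccgCAGACggcgagggggagg
SOX12, GGCGC, chr20:325391-325420: aacgggtgacgcGGCGCccgagcgcgaggc
SOX13, CACCC, chr1:204072905-204072934: tcactccaccccCACCCttccccgccgccc
The SOX4 window held 1 GGCGC match and none of the other 4 motifs. SOX12 held 1 CAGAC, 4 GGCGC and 2 CACCC matches, 2 of the GGCGC matches overlapping on opposite strands, and SOX13 held 4 CACCC matches and none of the rest. Of all 34961 promoters of this length on the autosomes and the X chromosome, 44.6% held GGCGC, 38.0% CAGAC, 54.8% CACCC, 24.6% ACAAT and 6.54% TGANTCA, so a match to a motif of 5 bases is common. The RefSeq start of SOX4 lies 983 bases downstream of the GENCODE start, so its window falls within the first exon as GENCODE draws it.

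SOX4, a C group activator, was the 1 member that rose, and it did so by DESeq2 but not by edgeR. Its level was 14.7 TPM in control replicate 1 and 11.1 TPM in control replicate 2, against 23.9 and 24.7 TPM in TGF-β1 replicates 1 and 2. Both treated libraries lay above both controls, and the treated libraries differed from each other by less than the controls did. In CPM, counts scaled for depth and library composition but not for length, control replicates 1 and 2 had 62.0 and 47.9 and TGF-β1 replicates 1 and 2 had 101 and 112. The CPM means were 54.9 ± 10.0 in the controls and 106 ± 7.66 in the treated libraries (SD, n = 2 each), a 1.94-fold difference by edgeR. In such bulk RNA, more cells that express a gene and more of its RNA per cell cannot be told apart, nor can fewer cells and less RNA per cell.

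DESeq2's Wald test gave SOX4 a log2 fold change of 0.96 ± 0.25 (SE) and a Benjamini-Hochberg adjusted p of 0.0286, against a threshold of 0.05, and the value was higher in both replicate numbers. DESeq2 called 0.422% of genes higher. Of the 4 members, chosen with earlier results of these data known, 1 was among them (SOX4) and none was lower. edgeR's quasi-likelihood test, the main test, gave 0.95 ± 0.17 (SE), an unadjusted p of 0.0041 and an adjusted p of 0.913. That test called 0 of 14774 genes (0.0%) after adjustment, where DESeq2 called 90. Its smallest adjusted p was 0.0888, which SMAD7 had at a 13.6-fold difference, so it did not call the check gene either. DESeq2 called SMAD7 (adjusted p = 6.28e-47). Before adjustment 255 genes had an edgeR p under 0.05, and 1.34% of all tested genes were higher by that measure, among them SOX4 and no other member. By that unadjusted p SOX4 ranked 66th, and 1.16% of tested genes had a log2 fold change at least as high.

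Within replicates 1 the CPM ratio was 1.63 (log2 0.70) and within replicates 2 it was 2.34 (log2 1.22). Replicates 2 had both the lower control and the higher treated value. Leaving out any 1 library ended DESeq2's call. The adjusted p became 0.0704 without control replicate 1 and 1.00 without control replicate 2. It became 0.857 when TGF-β1 replicate 1 was dropped and 1.00 when TGF-β1 replicate 2 was dropped. With the replicate number as a block, edgeR called SOX4 higher (adjusted p = 0.00682) in a fit that called 1.75% of genes higher, and DESeq2 did so (0.0157) in one that called 1.25% higher.

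**Figure D1:**
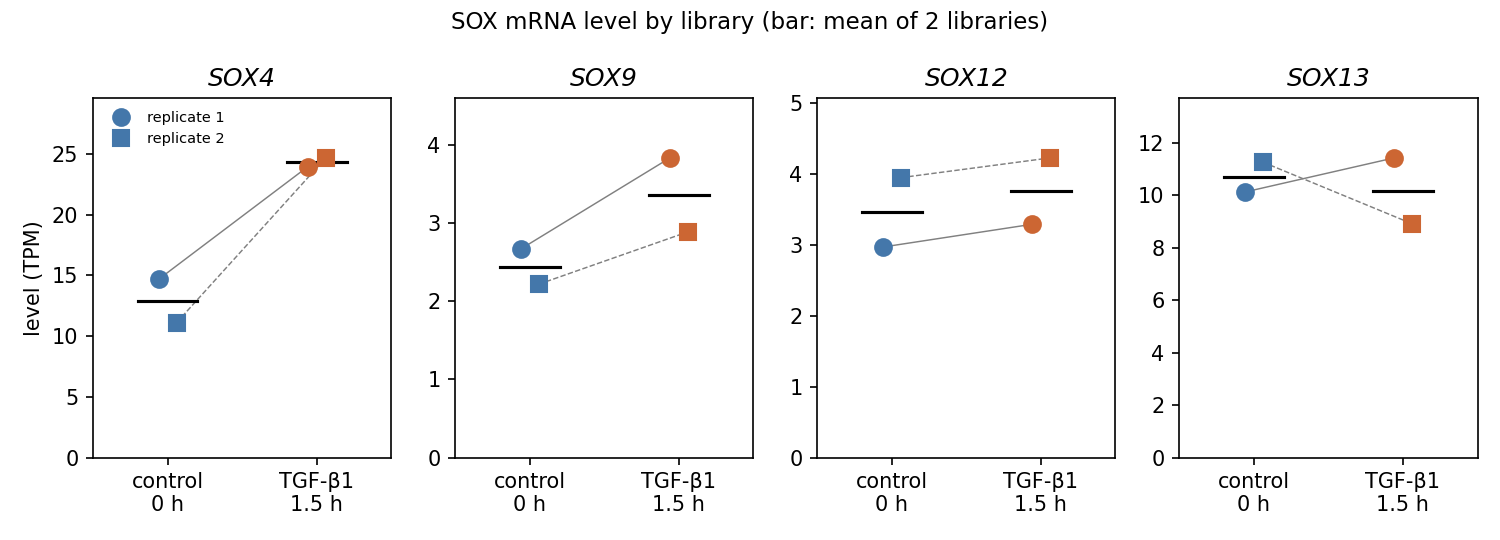
Levels in TPM of SOX4, SOX9, SOX12 and SOX13 in each of the 4 libraries, with controls in blue, TGF-β1 1.5 h in orange, circles for replicate 1, squares for replicate 2, a bar for the mean of 2 libraries and lines joining equal replicate numbers. SOX4 goes from 14.7 and 11.1 to 23.9 and 24.7 TPM, while the groups of SOX12 and SOX13 overlap.

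SOX9, the E group regulator of cartilage, was the least abundant member and had the next largest difference. It stood at 2.67 and 2.22 TPM in control replicates 1 and 2 and at 3.83 and 2.89 TPM in TGF-β1 replicates 1 and 2. Both treated libraries were above both controls, with the lower treated library close to the higher control. The CPM ratio was 1.43 within replicates 1 and 1.37 within replicates 2, so these ratios were close. The group means in CPM were 6.90 ± 0.807 (control) and 9.69 ± 1.45 (TGF-β1), resting on 232 to 419 estimated counts per library. SOX9 passed neither test, with an edgeR log2 fold change of 0.49 ± 0.21 (SE), an unadjusted p of 0.0800 and an adjusted p of 1.00 by edgeR and by DESeq2. With the replicate block its edgeR adjusted p was 0.116. The groups of SOX4 and SOX9 did not overlap in CPM, upward, which makes 2 of 4 members against 7.87% of tested genes. The members were chosen with earlier results of these data known, so that share is a description only.

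SOX12, the C group relative of SOX4, passed neither test. Its levels were 2.97 and 3.95 TPM in the controls and 3.29 and 4.23 TPM after TGF-β1, so the replicate number separated the libraries and the groups overlapped. The CPM ratio was 1.11 within replicates 1 and 1.13 within replicates 2. edgeR gave a log2 fold change of 0.16 ± 0.26 (SE) and an adjusted p of 1.00. The ratio of SOX4 to SOX12 in TPM was 4.94 and 2.81 in the controls and 7.27 and 5.83 after TGF-β1. That ratio was higher in both treated libraries than in both controls, a difference that was not tested.

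SOX13, the D group factor, passed neither test as a gene. It had 10.1 and 11.3 TPM in the controls and 11.4 and 8.91 TPM after TGF-β1. The groups overlapped, and the CPM ratio was 1.06 within replicates 1 and 0.851 within replicates 2, on opposite sides of no change. edgeR gave a log2 fold change of -0.07 ± 0.16 (SE) with an adjusted p of 1.00, and DESeq2's adjusted p was also 1.00.

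The members differ in how they are built and in how well their reads can be assigned. SOX4 on chromosome 6 (21592768 to 21598619, GRCh38, plus strand) and SOX12 on chromosome 20 (325595 to 330224, plus strand) each have 1 exon and 1 transcript. SOX9 on chromosome 17 (72121020 to 72126420, plus strand) is counted through 1 transcript of 3 exons, and SOX13 on chromosome 1 (204073115 to 204127743, plus strand) through 10 transcripts. Of the 5822 stretches of 31 bases in the SOX4 transcript, 155 (2.66%) also occur in transcripts of other genes, against 8 of 4600 in SOX12 and 30 of 3905 in SOX9. The SOX12 stretches are shared with SOX4 and SOX11, and those of SOX9 with SOX8, SOX10 and SOX21. Counts of SOX9 and SOX12 were whole numbers in every library.

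The estimates of the leading SOX13 transcripts differed in opposite directions. SOX13-203, which starts 39312 bases upstream of SOX13-210, was estimated at 4.35 and 6.18 TPM in the controls and at 2.79 and 1.58 TPM after TGF-β1. SOX13-210 was estimated at 3.67 and 1.39 TPM in the controls and at 5.70 and 4.83 TPM after TGF-β1. Both transcripts have 1866 coding bases, and their sum stayed between 6.42 and 8.50 TPM. These transcripts were singled out after their values were seen. In a fit on single transcripts edgeR gave SOX13-203 a log2 fold change of -1.25 ± 0.37 (SE) and SOX13-210 one of 1.09 ± 0.53 (SE). Their unadjusted p were 0.0275 and 0.108, and neither passed after adjustment (1.00 for both), in a fit where 2.96% of transcripts had an unadjusted p under 0.05. With 1 library left out, the SOX13-210 value ran from 0.55 to 1.997, and DESeq2 called it without control replicate 1 (adjusted p = 0.0301). Of 8854 genes with several expressed transcripts, 18.5% held 1 transcript whose groups did not overlap upward and another downward, so such a pattern is common and is no result about SOX13. SOX13-203 has 111 exonic bases that SOX13-210 lacks, of 3587, and SOX13-210 has 0 that SOX13-203 lacks. Of stretches of 31 bases found in no other transcript at all, SOX13-203 has 2 and SOX13-210 has 0. The division between them is thus an estimate with little sequence behind it.

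Against the rest of the SOX family, SOX4 moved up 1 place. In the controls the order of mean TPM was SOX15, the only G group member and known from epithelia (19.1 ± 0.506 TPM), SOX4 (12.9 ± 2.53), SOX13 (10.7 ± 0.807), SOX7, an F group factor known from endothelium (6.47 ± 0.808), SOX12 (3.46 ± 0.692) and SOX9 (2.44 ± 0.319). After TGF-β1 it was SOX4 (24.3 ± 0.506), SOX15 (18.1 ± 2.29), SOX13 (10.2 ± 1.77), SOX7 (5.75 ± 0.0640), SOX12 (3.76 ± 0.663) and SOX9 (3.36 ± 0.669), all mean ± SD with n = 2. SOX4 and SOX13 overlapped in the controls and not after TGF-β1, and SOX12 and SOX9 overlapped after TGF-β1 and not in the controls. SOX4 made up 25.5% and 19.9% of the summed SOX TPM in the controls and 34.6% and 38.5% after TGF-β1. That sum was 57.6 and 55.9 TPM in the controls and 69.3 and 64.1 TPM after TGF-β1.

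**Figure D2:**
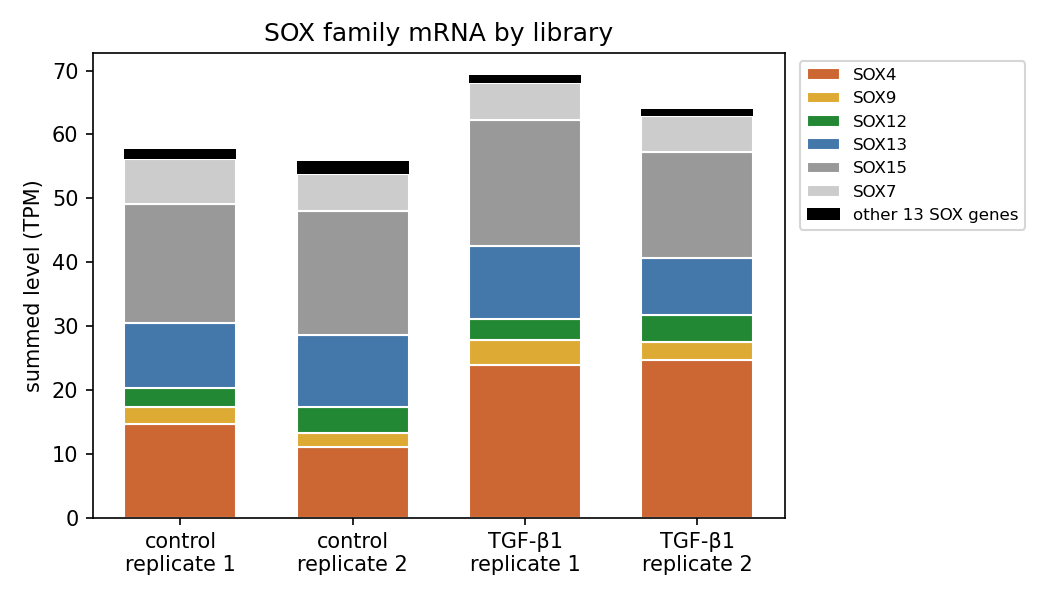
Stacked levels in TPM of the SOX family in each library, with the 4 members in colour, SOX15 and SOX7 in grey and the other 13 family genes in black. The SOX4 segment takes 25.5% and 19.9% of the bar in the controls and 34.6% and 38.5% after TGF-β1.

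Of the 15 other SOX genes looked at, 5 were tested and 0 were called by edgeR or DESeq2. SOX15 had 18.7 and 19.4 TPM in the controls and 19.7 and 16.5 TPM after TGF-β1, and SOX7 had 7.05 and 5.90 against 5.79 and 5.70 TPM. The edgeR log2 fold changes of SOX15 and SOX7 were -0.05 ± 0.15 and -0.14 ± 0.16 (SE), neither with an unadjusted p under 0.05. SOX5 and SOX6, the D group partners of SOX9 in cartilage, were between 0.285 and 1.40 TPM in every library. Their edgeR log2 fold changes were 0.39 ± 0.40 and -0.07 ± 0.65 (SE), and with transcript lengths taken into account they became -0.35 for SOX5 and -0.81 for SOX6. SOX11, the C group relative of SOX4, had 12.7 to 17.1 estimated counts per library and a log2 fold change of -0.20 ± 0.42 (SE). SOX18, an F group factor, had 3 and 4 counts in the controls and 10 and 4 after TGF-β1 and was too low for the test. SOX1, SOX2, SOX3, SOX8, SOX10, SOX14, SOX17, SOX21 and SOX30 had at most 3 counts in any library, and 4 of these 9 had 0 in all.

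**Figure D3:**
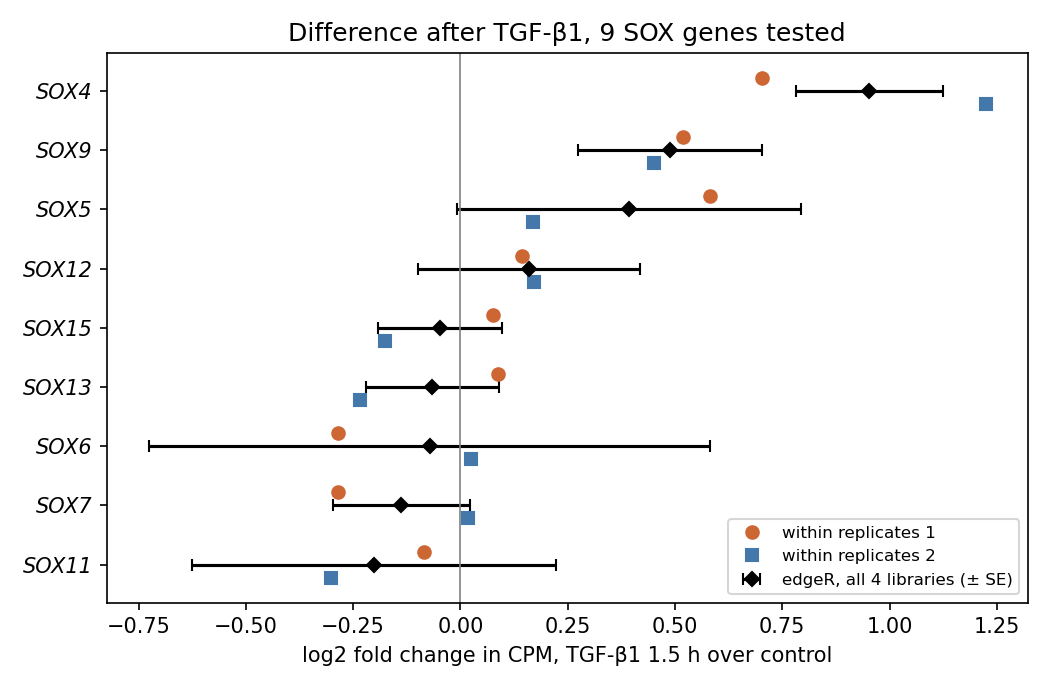
Log2 fold change in CPM, TGF-β1 1.5 h over control, for the 9 SOX genes tested, with edgeR's value ± SE as black diamonds, replicates 1 as orange circles and replicates 2 as blue squares. SOX4 (0.95) and SOX9 (0.49) lie to the right of 0 in both replicate numbers, as do SOX12 (0.14 and 0.17) and SOX5 (0.58 and 0.17). SOX6, SOX7, SOX13 and SOX15 lie on both sides of 0, and SOX11 lies to the left of it in both.

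No neighbour of the members was called by edgeR or DESeq2 without the replicate block. No other gene tested starts within 1 Mb of the SOX4 start, and 1 does so for SOX9, the zinc transporter gene SLC39A11, at 14.6 and 11.4 TPM in the controls and 13.7 and 10.4 TPM after TGF-β1. Near SOX12 lie 14 tested genes with a median log2 fold change of -0.03, and near SOX13 lie 18 with a median of 0.01, against -0.01 for all tested genes. Of these 33 neighbours 0 were called by edgeR or DESeq2 without the block, and 1 had an unadjusted edgeR p under 0.05, the gene AL121758.1 near SOX12, annotated as protein-coding, which was listed at 0 in both treated libraries and at 0.280 and 0.279 TPM in the controls. NRSN2 and ZCCHC3, the nearest to SOX12, had 0.525 and 0.919 TPM and 8.11 and 9.02 TPM in the controls, against 0.405 and 0.873 TPM and 7.55 and 7.17 TPM after TGF-β1. ETNK2, the ethanolamine kinase gene nearest to SOX13, had 22.8 and 36.7 TPM in the controls and 19.8 and 36.5 TPM after TGF-β1, again ordered by replicate number. With the block, edgeR called AL121758.1 (adjusted p = 0.0319) and BTG2, an antiproliferative gene near SOX13 (adjusted p = 0.0220), both lower. DESeq2 with the block called neither (adjusted p = 0.0599 and 0.335). BTG2 had 16.1 and 26.1 TPM in the controls and 11.97 and 19.1 TPM after TGF-β1, so its groups overlapped.

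Genes known to lie downstream of the members, or to work with them, were taken as lists. Of 8 genes reported elsewhere as controlled by SOX4 or SOX11, 7 were tested and 0 were called by edgeR or DESeq2 (0 at an unadjusted edgeR p under 0.05), with a median log2 fold change of 0.03. EZH2, the Polycomb methyltransferase known as a SOX4 target in mammary cells, is in that list and was chosen for mention after its values were seen. It had 18.3 and 11.8 TPM in the controls and 17.3 and 10.99 TPM after TGF-β1, ordered by replicate number in both groups. Of 13 cartilage genes known as SOX9 targets, SOX5 and SOX6 among them, 4 were tested and 0 called by edgeR or DESeq2 (0 unadjusted by edgeR), and the highest level of any of the 13 was 1.40 TPM. The 8 HMG-box factors and partners of WNT signalling, TCF7, TCF7L1, TCF7L2, LEF1, CTNNB1, HBP1, CIC and BBX, were all tested. None was called by edgeR or DESeq2 (0 unadjusted by edgeR), and their log2 fold changes ran from -0.33 to 0.13 with a median of -0.03.

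Among 12 regulators of mammary stem and progenitor cells, 9 were tested and 1 rose by DESeq2, which called 0.422% of all genes higher. This was SNAI2, the SLUG repressor known to act with SOX9 in mammary stem cells, at 44.0 and 30.2 TPM in the controls and 132 and 132 TPM after TGF-β1. SNAI2 rose 3.64-fold in CPM (DESeq2 adjusted p = 4.44e-09, edgeR adjusted p = 0.360), and was higher within both replicate numbers. The other 8 were not called, with a list median of 0.10. Without the replicate block edgeR called 0 of the 9 (1 higher at an unadjusted p under 0.05, against 1.34% of all tested genes).

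The genes with profiles most like the members were found by the Euclidean distance between log2 CPM values, each centred on its mean over the 4 libraries, among 12372 genes with a mean of at least 1 TPM. For SOX4 they were ARID5A, an AT-rich DNA-binding factor (distance 0.0630), the IκB family protein gene BCL3 (0.188) and BNC1, basonuclin, a zinc-finger protein of basal keratinocytes (0.219). ARID5A had 1.21 and 0.947 TPM in the controls and 1.85 and 2.06 TPM after TGF-β1, and BNC1 had 55.0 and 39.9 against 86.4 and 75.5 TPM. Those of SOX9 were ZCCHC14 (0.0858), the pseudogene DSTNP1 (0.101) and KLHL25 (0.106). SOX12 was closest to APOL4, TRAPPC2L and DENND3 (0.0335 to 0.0387) and SOX13 to MRPS26, PSMG4 and RETREG1 (0.0322 to 0.0488). With 4 libraries these distances are a description, and none of the genes near SOX4 or SOX9 was called by DESeq2 or by edgeR without the replicate block. With it, edgeR called BNC1 (adjusted p = 0.00343) and ZCCHC14 (adjusted p = 0.0259), while DESeq2 called BNC1 (1.36e-14) and not ZCCHC14 (0.225).

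Markers of other cell types stood beside the SOX4 difference as follows. The 7 fibroblast markers summed to 21.4 and 19.8 TPM in the controls and 28.5 and 26.2 TPM after TGF-β1. Without the replicate block, 0 of 3 tested were called by edgeR or DESeq2 (0 at an unadjusted edgeR p under 0.05). With the block, edgeR called COL1A1 higher (adjusted p = 0.0181) and DESeq2 did not (adjusted p = 0.101). DCN, a matrix proteoglycan, and COL1A1, the collagen also known as a TGF-β target, made up most of it. COL1A1 had 2.96 and 1.99 TPM against 8.76 and 4.40 TPM, while COL1A2, COL3A1 and LUM were at or under 0.101 TPM in every library. The part of these markers in the SOX4 difference was not tested. Blood and endothelial markers summed to between 14.6 and 18.2 TPM, mostly the lysosomal protein gene CD68, with CD3E at 0 in all 4. Neural crest and glial markers, looked at because SOX10 marks those cells, summed to between 5.36 and 6.14 TPM, nearly all of it MITF.

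A set of 18 fits changed the tool, the scaling, the filter, the unit, the block or the libraries. Each reused the same 4 libraries or all but 1 of them, so the fits are not independent. SOX4 was fitted in all of them. Its log2 fold change was positive in all 18, from 0.77 to 1.17, with an unadjusted p under 0.05 in each and an adjusted p under 0.05 in 3. SOX9 was positive in all 18, from 0.32 to 0.65, with an adjusted p under 0.05 in 0 and an unadjusted one in 1.

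**Figure D4:**
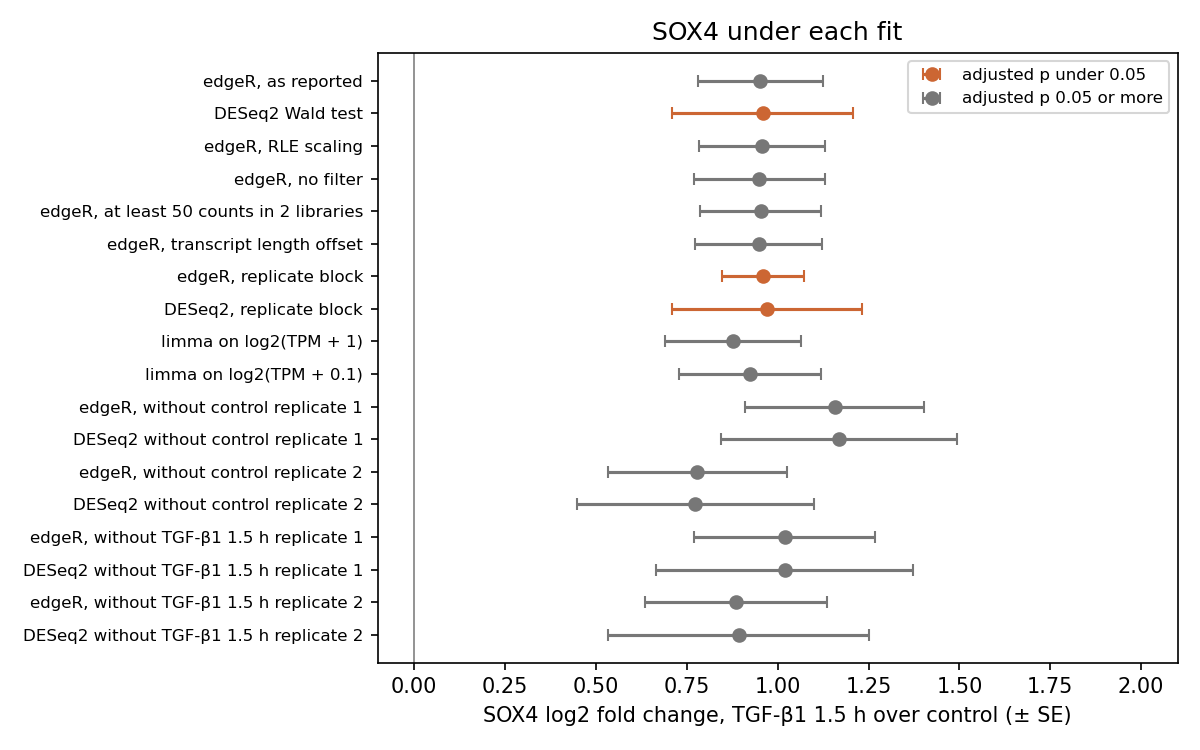
Log2 fold change of SOX4, TGF-β1 1.5 h over control, with its SE, under each of 18 fits, in orange where the adjusted p was under 0.05 and in grey elsewhere. All values lie between 0.77 and 1.17, and the 3 in orange are DESeq2 on all libraries and the fits with the replicate block.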

How the data were processed

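RNA of 4 MCF10A samples was sequenced by the authors from stranded libraries depleted of ribosomal RNA, per the labels' protocols, while another label field calls the molecule polyA RNA. The submitters' processing notes name kallisto and GRCh38, without a version or transcript release. Per the file headers, the authors' values are estimated counts, in which reads that match several transcripts are divided between them, and TPM. Lengths and effective lengths in bases, an other unit, stand in the same deposited tables.

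Of 173259 transcripts, 159239 (91.91%) matched GENCODE release 29, and unmatched ones held 2.24% to 2.38% of a library's counts. Estimated counts were summed per gene, rounded and fitted on all genes with edgeR 4.0.16 (TMM, filterByExpr, quasi-likelihood test, 14774 genes, Benjamini-Hochberg). The SE of an edgeR log2 fold change is its size divided by the square root of F. DESeq2 1.42.0 (19649 genes with an adjusted p) and limma 3.58.1 on log2(TPM + 1) and log2(TPM + 0.1), in R 4.3.3, were alternatives, with RLE scaling, other filters, a length offset, the replicate block and each library left out. edgeR's main fit, DESeq2 without the block and limma on log2(CPM + 1) were run on simulated counts drawn without a replicate effect. The other fits were not. Single-transcript fits were added after the data were seen. The members and lists were chosen with earlier results of these data known. The text names the 4 members, other SOX genes with at least 10 counts, genes called in each list, the nearest and any called neighbours, and the 3 genes nearest in profile to each member. The rule also allowed the 3 lowest p-values of each list, not all of which are named, and EZH2 and markers that carry or nearly lack a list's sum are named outside it.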

Additional observations from a re-analysis of the deposited data

How the results depend on the processing

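No gene was called by edgeR's main fit, nor with RLE scaling, with at least 50 counts in 2 libraries or by limma. The count of genes called was 90 with DESeq2, 15 without a filter, 3 with the transcript length offset, 335 with the replicate block and 245 with DESeq2 and the replicate block. With 1 library left out it ran from 8 to 25 by edgeR, and DESeq2 gave 67 and 62 when control replicates 1 and 2 were dropped in turn, and 46 and 71 for TGF-β1 replicates 1 and 2. The SOX4 log2 fold change of 0.95 was not past the threshold in edgeR's main fit and was past it with DESeq2 (0.96), with the replicate block (0.96) and with DESeq2 and the replicate block (0.97). Its leave-one-out values ran from 0.77 to 1.17. Those of SOX9 ran from 0.32 to 0.65, those of SOX12 from -0.082 to 0.395 and those of SOX13 from -0.22 to 0.086. SOX12 turned sign without control replicate 1 (-0.039 by edgeR, -0.028 by DESeq2) and without TGF-β1 replicate 2 (-0.082 and -0.072), and SOX13 without TGF-β1 replicate 2 (0.078 and 0.086). The replicate block moved the count of called genes from 0 to 335 and called SOX4 and no other member. Of the other genes named, edgeR with the block also called SMAD7, SNAI2, BNC1, ZCCHC14 and COL1A1 higher and AL121758.1 and BTG2 lower, which the main fit did not. Of these, DESeq2 with the block called only SMAD7, SNAI2 and BNC1. The differences between replicates 1 and 2 of each group correlated across genes (r = 0.66 over 14774 genes, which are not independent), while the labels do not say that a number pairs samples. SOX5 turned to -0.35 with the length offset and to -0.12 and -0.32 by limma on log2(TPM + 1) and log2(TPM + 0.1), and SOX6 moved to -0.81, -0.36 and -0.70 in the same fits. With 1 library left out, the edgeR values reached down to -0.88 for SOX6, -0.38 for SOX11, -0.14 for SOX15 and -0.33 for EZH2. Other such fits by edgeR and DESeq2 turned SOX6 to between 0.45 and 0.53, SOX11 to 0.0078 and 0.0034, SOX15 to 0.046 and 0.054, and EZH2 to 0.29 and 0.31 without control replicate 1 and to 0.21 and 0.22 without TGF-β1 replicate 2. SOX7 ran from -0.016 without control replicate 1 to -0.25 without control replicate 2 by edgeR. A lone library is assumed there to vary like the other group. With 2 libraries per group, SOX11 and SOX18 are limited by their counts.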
